A study of Mus musculus with 2 samples.

Results

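Lipid droplets are the organelles that hold the triglyceride of fat cells, and 10 genes for proteins of their surface or of their formation were followed in the gonadal fat pad of adult mice. They were Plin1, Plin2, Plin3, Plin4 and Plin5 (the perilipins), Cidea, Cideb and Cidec (the CIDE family), Bscl2 and Fitm2. The genes were listed by name, with earlier results of these data known, and no measured value entered the rule. All 10 were found among the 43346 Ensembl genes of the deposited gene tables, with 33 annotated transcripts between them. The tissue came from C57BL/6J mice of 8 weeks, and the RNA was polyadenylated and read from strand-specific libraries. There was 1 group of 2 libraries, biological replicates 1 and 2 by their labels, each a separate biosample of pooled males and females. The labels name littermates and give both libraries the same donor identifier, so the number of animals behind each is unknown, and the spread between the libraries may be technical in part. No treatment, genotype or second tissue was compared, so every difference given here is between libraries of 1 group, as a description with no test.

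Expected counts, which are estimated numbers of fragments, summed over genes to 47106979 in replicate 1 and 54129473 in replicate 2. Added ERCC spike-in RNAs held 2.28% and 1.83% of the counts. Levels are given as TPM, which scales each gene by its length and each library to a fixed total, so that levels of different genes can be compared. The threshold for calling a gene expressed was 1 TPM, reached in each library. The tissue label was checked on markers. All 18 adipocyte markers were expressed, with medians of 429 and 464 TPM in replicates 1 and 2, and so were all 13 epididymis markers, with medians of 1120 and 1165 TPM. Genes known from fat cells and from the epididymis, the duct beside this depot in males, were thus both measured. In bulk tissue fewer cells of a type and less RNA per cell cannot be told apart.

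A lipid droplet buds from the endoplasmic reticulum as a core of neutral lipid under a single layer of phospholipid. Fitm2 and Bscl2 encode membrane proteins of the endoplasmic reticulum that act in budding and at the neck between the membrane and the droplet. Perilipins then coat the surface and govern the access of lipases, and CIDE proteins gather at the contacts between droplets and let lipid pass from the smaller to the larger. White fat cells, which hold a single large droplet, are known for Plin1 and Cidec, brown fat cells for Cidea and Plin5, and liver and gut for Cideb.

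All 10 genes were expressed, against 61.6% of the 21474 protein-coding genes. The order by mean level was Cidec, Plin1, Plin4, Bscl2, Plin2, Plin3, Fitm2, Plin5, Cideb and Cidea, over a range of 1558 to 4.58 TPM. In all, 3 pairs of neighbours in that order had ranges over the 2 libraries that overlapped, namely Plin1 and Plin4, Bscl2 and Plin2, and Cideb and Cidea. The ranges of the other neighbours did not overlap. Replicate 1 alone gave the same order, whereas replicate 2 alone kept 4 genes in place, since each of these 3 pairs changed places there. Of all gene counts, the 10 genes together took 0.483% in replicate 1 and 0.772% in replicate 2.

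**Figure D1:**
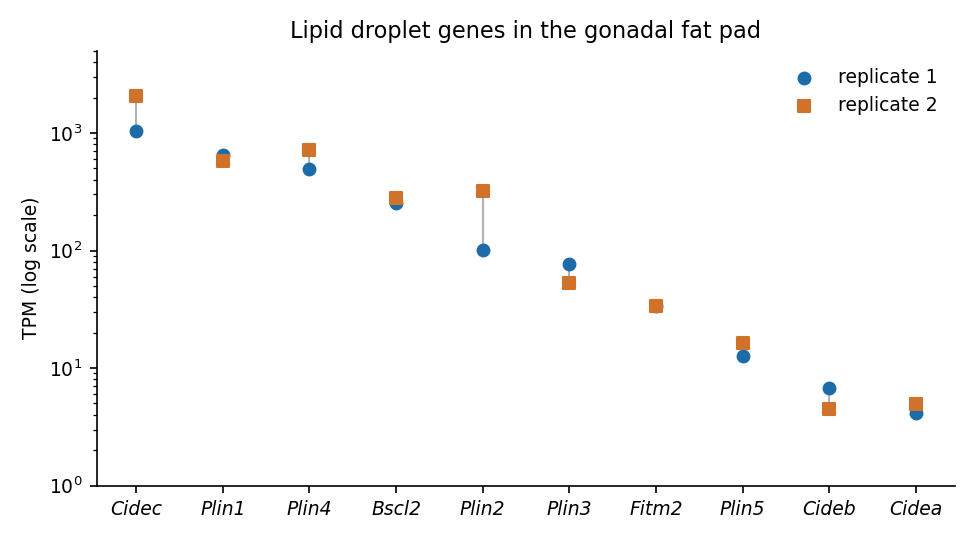
TPM on a log axis for the 10 lipid droplet genes in order of mean level, with circles for replicate 1 and squares for replicate 2 joined by a line. Levels run from 1049 and 2068 TPM for Cidec to 4.19 and 4.97 TPM for Cidea, the widest gap is that of Plin2, and the circle of Fitm2 lies under its square.

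Plin1 encodes the coat protein of large droplets in fat cells, which holds back lipolysis until it is phosphorylated. The gene (ENSMUSG00000030546, minus strand, chr7:79720218-79732903, mm10) stood at 654 TPM in replicate 1 and 578 TPM in replicate 2, a mean of 616 ± 53.4 (SD, n = 2). The expected counts behind these levels were 40706 and 44551. The libraries differed little for this gene, which ranked at 202 of all genes by mean TPM. The protein-coding genes nearest to it in level over the 2 libraries were Pgap2 at 640.0 and 589 TPM and Tmbim6 at 657 and 603 TPM, as a description of level alone.

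Plin4 encodes a perilipin with a long run of amphipathic repeats that is abundant in white fat. This gene (ENSMUSG00000002831, minus strand, chr17:56100591-56109803) reached 492 TPM in replicate 1 and 720 TPM in replicate 2, a mean of 606 ± 161 (SD, n = 2). In replicate 1 it lay below Plin1 and in replicate 2 above it. Its transcript is long, with an effective length of 5539 and 5532 nt, and so it drew 101661 and 184993 expected counts, more than any other of the 10 genes in either library. Ndufa4 at 482 and 673 TPM and Txnip at 532 and 724 TPM were the nearest protein-coding genes in level.

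Plin2 encodes the coat protein found on droplets of most cell types, which is degraded when it is not bound to lipid. It differed more between the libraries than any other of the 10 genes. The gene (ENSMUSG00000028494, minus strand, chr4:86648386-86670060) stood at 102 TPM from 5430 expected counts in replicate 1 and at 323 TPM from 21228 in replicate 2, a 3.18-fold difference and a mean of 212 ± 157 (SD, n = 2). The intervals that the authors' tables give for these 2 levels, at a confidence that the tables do not state, were 97.0 to 105 TPM and 313 to 328 TPM. These intervals do not overlap, but they cover the estimate within a library and not the variation between samples. The ratio of Plin2 to Plin1 was 0.156 in replicate 1 and 0.559 in replicate 2, a comparison within each library that does not depend on how the libraries are scaled. Serpina3n, an acute phase serpin, at 121 and 381 TPM and Angptl4, an inhibitor of lipoprotein lipase, at 137 and 304 TPM were nearest to it over the 2 libraries.

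The window around the start of Plin2 is shown because the gene had the largest difference. It runs from 250 bases before the RefSeq start to 50 after it (mm10, chr4:86670010-86670309, minus strand, 5′ to 3′), and the RefSeq start lies 1 base from that of the leading transcript. Capitals mark matches, on either strand, to the motifs searched.
Plin2: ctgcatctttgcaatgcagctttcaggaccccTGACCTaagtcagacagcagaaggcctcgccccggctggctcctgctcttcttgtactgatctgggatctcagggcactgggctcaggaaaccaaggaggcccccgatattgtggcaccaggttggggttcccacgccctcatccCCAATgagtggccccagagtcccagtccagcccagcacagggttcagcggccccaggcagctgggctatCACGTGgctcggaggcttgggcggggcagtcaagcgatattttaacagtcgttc
The motifs were TATAAA (the TATA box), CCAAT (the CCAAT box), CACGTG (the E-box) and AGGTCA (the core bound by many nuclear receptors), with no overlap between matches here. They were chosen with these sequences in view. A CCAAT box begins 73 bases before the start, an E-box 4 bases before it, and the nuclear receptor core lies on the opposite strand with its first listed base 218 bases before it. Of all 32851 RefSeq windows of this length, 13.6% hold TATAAA, 37.4% hold CCAAT, 7.15% hold CACGTG and 16.3% hold AGGTCA. Among the 13 windows of 9 of the genes that were read, 1 holds TATAAA, 5 hold CCAAT, 1 holds CACGTG and 4 hold AGGTCA. A match describes the letters and says nothing of whether a factor was bound.

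Plin3 encodes a perilipin that moves from the cytosol onto small, new droplets in many cell types. Its gene (ENSMUSG00000024197, minus strand, chr17:56277476-56292873) lay at 76.6 TPM in replicate 1 and 53.3 TPM in replicate 2, a mean of 64.9 ± 16.5 (SD, n = 2). The length listed with the level of its transcript was 2159 nt, against 3645 nt in the annotation that gave the position. Plin2 stood 1.33-fold above Plin3 in replicate 1 and 6.06-fold above it in replicate 2. Its log2 ratio of (TPM + 1) between the libraries, replicate 2 over replicate 1, was -0.52, close to the -0.51 of Cideb.

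Plin5 encodes the perilipin of oxidative tissues, which ties droplets to mitochondria. The gene (ENSMUSG00000011305, minus strand, chr17:56111601-56117596) lies next to Plin4 on the same strand, and its level was 12.8 TPM in replicate 1 and 16.5 TPM in replicate 2, a mean of 14.6 ± 2.64 (SD, n = 2). Its expected counts were 842 and 1350. Despite the shared position, Plin4 exceeded Plin5 by 38.6-fold in replicate 1 and 43.7-fold in replicate 2.

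Within the perilipins, Plin1 and Plin4 took most of the summed TPM, and the shares of Plin1 and Plin2 differed most between the libraries. Plin1 held 48.9% in replicate 1 and 34.2% in replicate 2. Plin4 held 36.8% and 42.6%. Plin2 held 7.61% and 19.1%, while Plin3 held 5.73% and 3.15% and Plin5 0.95% and 0.98%. The leading perilipin was therefore Plin1 in replicate 1 and Plin4 in replicate 2. By expected count, with no length scaling, Plin4 held 65.9% and 72.0% and Plin1 26.4% and 17.3%, so Plin4 led in both libraries by that measure.

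**Figure D2:**
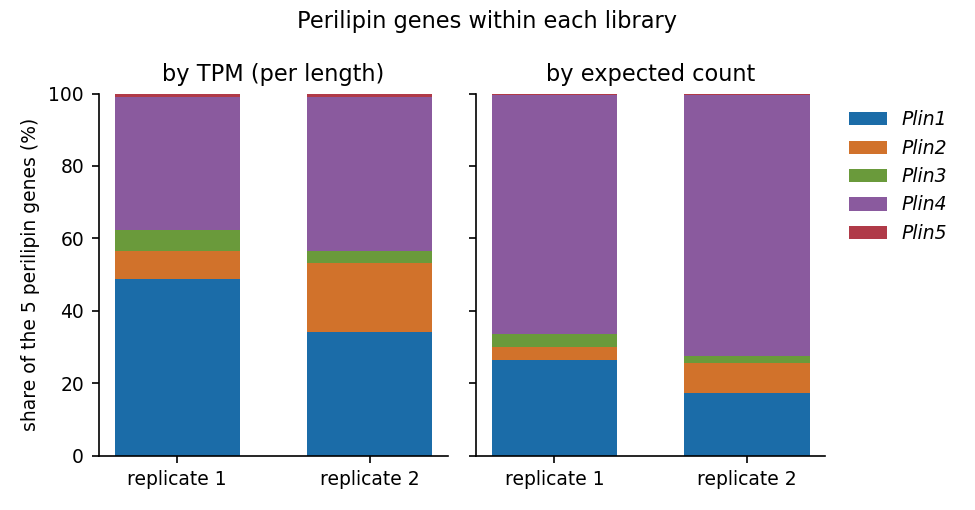
Stacked bars of the share in percent of each perilipin gene in the sum of all 5, by TPM on the left and by expected count on the right, for replicates 1 and 2. By TPM Plin1 and Plin4 are close and Plin2 is wider in replicate 2, and by count Plin4 fills most of both bars.

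Cidec, whose protein localizes to contacts between droplets and makes them fuse, was the most abundant of the 10 genes. The gene (ENSMUSG00000030278, minus strand, chr6:113424634-113435760) stood at 1049 TPM in replicate 1 and 2068 TPM in replicate 2, a 1.97-fold difference and a mean of 1558 ± 721 (SD, n = 2). The expected counts were 56884 and 139001. Its rank among all genes was 127 in replicate 1 and 54 in replicate 2. Cidec stood 1.60-fold above Plin1 in replicate 1 and 3.58-fold above it in replicate 2. The nearest protein-coding genes were Hp, which encodes haptoglobin, at 1184 and 1889 TPM and Vim, which encodes vimentin, at 1116 and 1767 TPM.

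Cidea and Cideb were low in both libraries. Cidea (ENSMUSG00000024526, plus strand, chr18:67343604-67367785), a gene known for brown fat, stood at 4.19 TPM in replicate 1 and 4.97 TPM in replicate 2, a mean of 4.58 ± 0.55 (SD, n = 2). The counts were 148, with an exact 95% Poisson interval of 125 to 174, and 217, with an interval of 189 to 248. Cideb (ENSMUSG00000022219, minus strand, chr14:55754050-55758458), which acts in the loading of lipoproteins with lipid in liver and gut, stood at 6.79 and 4.48 TPM, a mean of 5.64 ± 1.63 (SD, n = 2). Its counts were 251, with an interval of 221 to 284, and 204, with an interval of 177 to 234. Intervals cover counting error only. The order of the 2 genes was Cideb above Cidea in replicate 1 and Cidea above Cideb in replicate 2, so neither was shown to be higher. Cidec held 99.0% of the TPM of the CIDE family in replicate 1 and 99.5% in replicate 2, and its level was 250.3-fold and 416-fold that of Cidea.

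Markers of the cells that these genes are known for stood beside them as follows. Of 10 brown adipocyte markers 5 were expressed, with summed levels of 29.8 TPM in replicate 1 and 64.0 TPM in replicate 2. Cox8b, a muscle and brown fat subunit of cytochrome oxidase, was highest at 9.76 and 30.8 TPM, and Zic1 was lowest, listed at 0 in replicate 1 and at 0.010 TPM in replicate 2. Of 10 hepatocyte and enterocyte markers 4 were expressed, with sums of 270 and 96.4 TPM. Cyp2e1, which fat cells also express, led them at 211 and 57.3 TPM, and the albumin gene Alb was at 31.6 and 3.54 TPM. The part of these cells in the levels of Cidea and Cideb was not tested. Cideb overlaps Nop9 on the opposite strand by 1451 nt, and Nop9 stood at 8.61 and 8.04 TPM. Cidea overlaps the antisense gene B430212C06Rik by 500 nt, at 1.66 and 5.75 TPM. The libraries kept strand per the labels, but whether the counting used it is not given in the sources used here.

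Bscl2 encodes seipin, which is lost in a human congenital lipodystrophy. The gene (ENSMUSG00000071657, plus strand, chr19:8837467-8848683) stood at 251 TPM in replicate 1 and 279 TPM in replicate 2, a mean of 265 ± 19.9 (SD, n = 2). Fitm2 encodes a membrane protein needed for droplets to bud. The gene (ENSMUSG00000048486, minus strand, chr2:163466379-163472629) stood at 33.6 TPM in replicate 1 and 33.8 TPM in replicate 2, a mean of 33.7 ± 0.16 (SD, n = 2). These genes of droplet formation were close between the libraries on the TPM scale. The counts were 11437 and 15605 for Bscl2 and 4702 and 5884 for Fitm2.

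The next question was which transcripts carried these genes. Of the 33 annotated transcripts 22 were protein-coding, 14 held 10% or more of the TPM of their gene in either library, and 19 held less. Plin3, Cidea and Fitm2 had 1 transcript each. The tables divide shared fragments between transcripts by estimation, so these shares are less firm than the levels of the genes. At the level of the gene, the posterior SD that the tables give was at most 0.56 counts for any of the 10 genes. Hardly any fragments were thus divided with other measured genes.

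For Cidec nearly all TPM was assigned to transcripts from the upstream start. Cidec-202 held 66.05% in replicate 1 and 65.4% in replicate 2, and Cidec-201 held 29.98% and 30.7%. Both begin within 4 bases of each other and are annotated with 239 codons each. They share a run of 1676 nt, with 42 and 27 bases before it, so few bases are left to divide them by. Together they held 96.0% and 96.1% of the gene. The transcripts that begin further downstream, Cidec-203 and Cidec-204, held 3.97% and 3.89%, from 632 and 1357 expected counts. Cidec-203 begins 996 bases downstream of Cidec-202 and is annotated with 249 codons. The summed TPM share of the downstream starts was close in both libraries, while the level of the gene differed 1.97-fold. Within that sum Cidec-203 held 2.40% in replicate 1 and 2.01% in replicate 2, and Cidec-204 held 1.57% and 1.88%. These transcripts are short, at 785 and 376 nt. By expected count Cidec-203 held 0.94% and 0.78% of the gene and Cidec-204 0.17% and 0.20%.

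The windows around both starts are shown because the data assign the gene to them so unequally. The first (chr6:113435711-113436010) holds the start of Cidec-202 and the second (chr6:113434715-113435014) that of Cidec-203, both from RefSeq on mm10, minus strand, 5′ to 3′, with capitals for the 50 bases from the start on.
Cidec upstream start: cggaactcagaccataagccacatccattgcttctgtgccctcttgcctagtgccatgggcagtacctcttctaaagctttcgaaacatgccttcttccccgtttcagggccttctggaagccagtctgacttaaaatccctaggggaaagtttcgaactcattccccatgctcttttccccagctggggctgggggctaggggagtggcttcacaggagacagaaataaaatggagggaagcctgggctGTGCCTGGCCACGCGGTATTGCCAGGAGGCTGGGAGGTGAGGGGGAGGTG
Cidec downstream start: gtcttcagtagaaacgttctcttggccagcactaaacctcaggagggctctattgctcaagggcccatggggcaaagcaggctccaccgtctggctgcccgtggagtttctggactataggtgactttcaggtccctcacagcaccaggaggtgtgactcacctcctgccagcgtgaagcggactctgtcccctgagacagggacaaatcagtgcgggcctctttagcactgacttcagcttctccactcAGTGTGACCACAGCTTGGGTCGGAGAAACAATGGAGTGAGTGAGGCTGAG
Neither window holds any of the 4 motifs, and their GC contents were 55.7% and 56.3%, against a median of 52.7% over all windows.

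Bscl2 was likewise carried by 1 of its starts. Bscl2-201, annotated with 383 codons, held 92.2% of the TPM in replicate 1 and 93.9% in replicate 2. With the retained-intron forms that begin close to it, Bscl2-208 and Bscl2-209, this start held 93.6% and 95.6%. The 6 transcripts that begin further upstream held 6.29% and 4.32%. The main one of them, Bscl2-210, is annotated with 443 codons and held 5.48% and 3.83%, from 897 and 864 expected counts. One of the 10 transcripts, Bscl2-203, was listed at 0 in both libraries. The gene Gng3 overlaps Bscl2 on the opposite strand by 1728 nt and stood at 0.38 and 0.35 TPM. AC129217.1 overlaps Bscl2 on the same strand by 3671 nt. No level was available for it here, and its part in the counts of Bscl2 was not tested.

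The windows of both starts, 3052 bases apart by transcript, are shown for the same reason as those of Cidec. The first (chr19:8837217-8837516) holds the start of Bscl2-210 and the second (chr19:8840253-8840552) lies at Bscl2-201, whose start is 16 bases from the RefSeq start. Both are from RefSeq on mm10, plus strand, 5′ to 3′, with capitals from the RefSeq start on.
Bscl2 upstream start: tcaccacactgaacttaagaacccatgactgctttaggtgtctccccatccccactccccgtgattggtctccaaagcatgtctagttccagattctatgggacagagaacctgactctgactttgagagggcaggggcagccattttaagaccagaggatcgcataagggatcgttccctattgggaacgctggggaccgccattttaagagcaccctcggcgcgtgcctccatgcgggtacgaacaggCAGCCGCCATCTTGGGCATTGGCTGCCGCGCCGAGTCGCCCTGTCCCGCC
Bscl2 downstream start: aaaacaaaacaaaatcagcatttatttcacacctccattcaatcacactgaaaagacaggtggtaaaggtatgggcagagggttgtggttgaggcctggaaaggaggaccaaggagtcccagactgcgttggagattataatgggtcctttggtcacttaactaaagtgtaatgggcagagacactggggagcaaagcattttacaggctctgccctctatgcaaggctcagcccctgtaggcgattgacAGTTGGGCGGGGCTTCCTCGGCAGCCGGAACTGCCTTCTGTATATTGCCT
The upstream window holds 3 matches to CCAAT, all on the opposite strand, and the downstream window holds none of the 4 motifs.

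Plin1 was divided almost evenly between transcripts annotated with 517 codons each. Plin1-202 held 52.5% in replicate 1 and 59.8% in replicate 2, and Plin1-201, whose start lies 605 bases upstream, held 47.5% and 40.2%. Their spliced sequences in the annotation share a run of 1828 nt, with 88 bases before it in Plin1-201 and 13 in Plin1-202. The length listed with the levels of Plin1-202 was 1860 nt, against 1841 nt in that annotation. The bases that divided these transcripts in the estimate may therefore differ from those given. The posterior SD of either transcript was 392 and 376 counts, against 19684 and 18261 counts for Plin1-201. Plin5 was divided between Plin5-201 at 68.1% and 67.4% and Plin5-202 at 31.9% and 32.6%, whose starts lie 298 bases apart and which are annotated with 463 codons each. They share a run of 1887 nt. The posterior SD of Plin5-202 was 47.7 counts in replicate 1 and 61.0 in replicate 2, against 269 and 441 counts, so this division is less precise than that of Plin1.

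Plin2-201, annotated with 425 codons, held 81.0% of the TPM of Plin2 in replicate 1 and 80.4% in replicate 2. Plin2-208, a short non-coding form of 588 nt that begins within the span of Plin2-201 and ends beyond its 3′ end, held 16.1% and 17.6%, but 4.17% and 4.53% of the expected counts. TPM scales for length and the counts do not. With coding transcripts alone Plin2 stood at 83.7 TPM in replicate 1 and 262 TPM in replicate 2.

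The annotated transcripts of Plin4 cannot be told apart by sequence. Plin4-202 was listed at 98.9% in replicate 1 and 98.7% in replicate 2 and Plin4-201 at 1.07% and 1.26%. The spliced sequences were identical over all 5755 nt of Plin4-201, and Plin4-202 carries 1 more base at its start. That listed division therefore describes the estimate and not a measured difference in splicing.

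**Figure D3:**
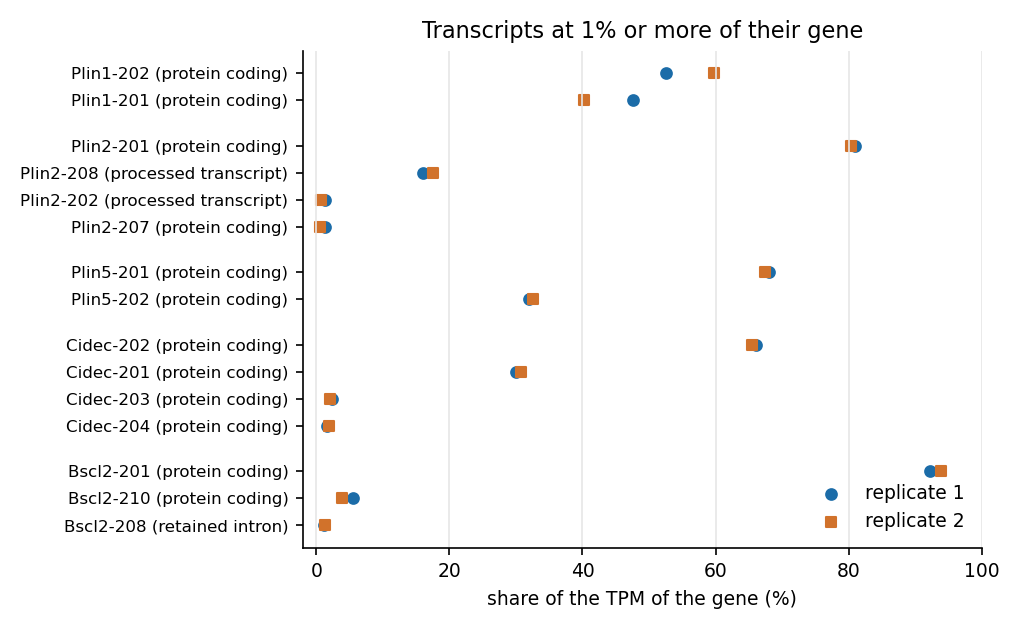
Share in percent of the TPM of each gene held by its transcripts, for Plin1, Plin2, Plin5, Cidec and Bscl2, with circles for replicate 1 and squares for replicate 2. Transcripts at 1% or more are drawn, and shares were close between the libraries except for Plin1, where Plin1-202 was at 52.5% and 59.8%.

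The difference between the libraries was then set against that of the whole table. Over 2-fold apart means that the ratio of (TPM + 1) passed 2, asked of genes whose expected counts averaged at least 20. Plin2 was the only member called, 1 of 10, against 2.7% of the 16920 genes with that count, and it was higher in replicate 2, against 1.15% of genes called higher in replicate 2 and 1.54% called higher in replicate 1. Of the 16920 genes, 0.632% had a larger absolute ratio than Plin2 and 2.84% a larger one than Cidec. The log2 ratios, replicate 2 over replicate 1, were 1.66 for Plin2, 0.98 for Cidec, 0.55 for Plin4, 0.35 for Plin5, 0.20 for Cidea and 0.15 for Bscl2. They were 0.01 for Fitm2, -0.18 for Plin1, -0.51 for Cideb and -0.52 for Plin3.

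Of the 10 members 7 had a positive ratio, against 34.8% of the 16920 genes, and the median was 0.18, against -0.11. With TMM scaling 50.4% of the genes were positive. Over the 14875 genes that averaged at least 1 TPM the median was -0.12, so a gene of equal TPM in both libraries lay above the typical gene. Relative to that median gene, by an alternative chosen after seeing the data, the ratio of Cidec was 1.12 and passed 2-fold, that of Plin2 was 1.80 and that of Plin1 -0.04. With TMM scaling of counts Cidec was at 1.13 and was called beside Plin2, and Plin1 at -0.02. Scaling by the summed spike-in counts moved the median gene to 0.26, and there Plin1 turned to 0.25. The sign of Plin1 thus depended on the scaling, while Plin3 and Cideb had negative and the other 7 positive ratios under all 11 settings. The settings that change only the count filter leave every ratio as it is, so they could not have changed a sign. Over all genes 195 were over 2-fold higher in replicate 2 and 261 in replicate 1 by TPM, and 228 and 170 by TMM.

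**Figure D4:**
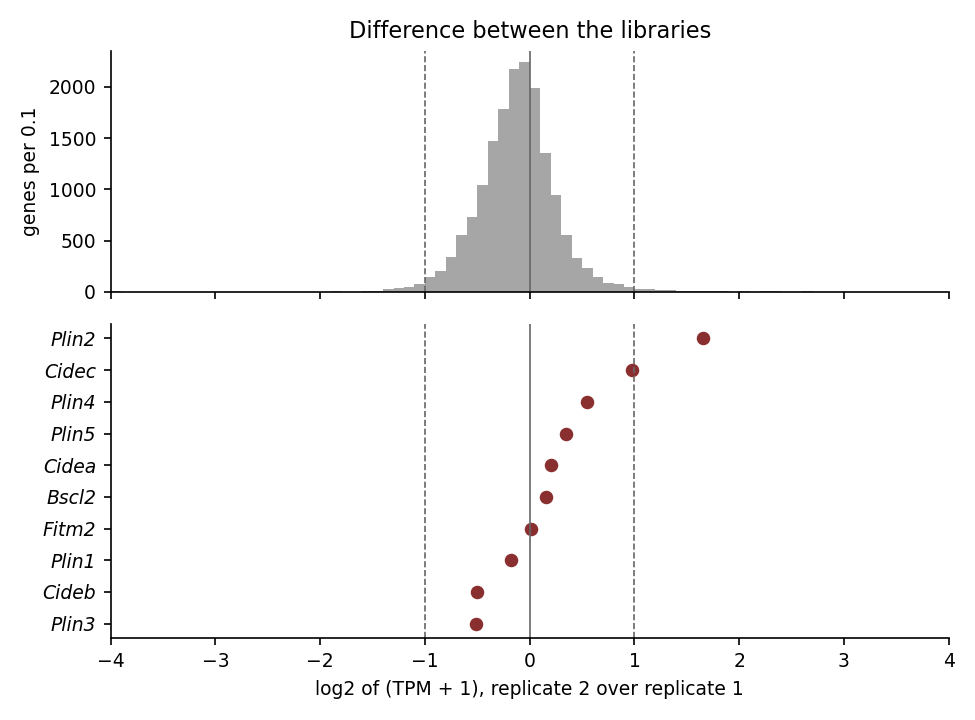
Above, the number of genes (expected counts averaging at least 20) in each step of 0.1 of the log2 ratio of (TPM + 1), replicate 2 over replicate 1, with values beyond 4 in either direction in the outermost steps. Below, the same ratio for the 10 members, with dashed lines at 2-fold, where Plin2 lies past the line at 1.66 and Cidec just inside it at 0.98.

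Genes that act with these proteins were read from 4 lists, each fully matched to the tables. Over all genes 2.7% of 16920 were over 2-fold apart, and the median over those averaging at least 1 TPM was -0.12. The lipases of the droplet and their regulators were all expressed, 12 of 12, with none over 2-fold apart and a median log2 ratio of 0.06. By mean level the first 4 were Pnpla2, Lipe, Adrb3 and Mgll. Pnpla2, the adipose triglyceride lipase, was at 948 TPM in replicate 1 and 816 TPM in replicate 2, and Lipe, the hormone-sensitive lipase, at 502 and 474 TPM. Adrb3, an adrenergic receptor of fat cells, was at 566 and 347 TPM, and Mgll, the monoglyceride lipase, at 422 and 485 TPM. The lowest by mean were Hilpda, an inhibitor of the lipase that Pnpla2 encodes, at 9.77 and 16.2 TPM and Abhd6, a monoglyceride hydrolase, at 13.99 and 11.5 TPM.

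The triglyceride synthesis genes were expressed for 14 of 14, with a median log2 ratio of 0.09. Over 2-fold higher in replicate 2 were 2 of them, against 1.15% of the 16920 genes with enough counts. None were over 2-fold higher in replicate 1, against 1.54%. Dgat2, which adds the last fatty acid, was at 819 TPM in replicate 1 and 2155 TPM in replicate 2, and Mogat2, an acyltransferase of monoglyceride that was picked out after its values were seen, at 5.66 and 28.1 TPM. Agpat2, an acyltransferase lost like Bscl2 in human congenital lipodystrophy, was at 278 and 552 TPM with a log2 ratio of 0.99. Agpat3 at 639.8 and 465 TPM and Gpd1 at 283 and 388 TPM were also among the highest, and Lpin2 had the lowest mean, at 10.3 and 8.20 TPM.

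Of the 28 other proteins of droplets and their membrane contacts 27 were expressed, with a median log2 ratio of -0.04. Cav1, the caveolar coat protein, led at 1643 TPM in replicate 1 and 2419 TPM in replicate 2, followed by Mettl7a1 at 346 and 192 TPM and Cavin1 at 197 and 180 TPM. The exception was Hsd17b13, a droplet enzyme of liver, at 0.25 and 0.060 TPM from 10 and 3 counts. Over 2-fold apart was 1 gene of the 27 with enough counts, against 2.7% of all genes with enough counts. This was Clstn3, at 9.16 and 24.4 TPM, picked out after its values were seen. The 14 transcriptional regulators were all expressed, with none over 2-fold apart and a median of -0.11. Pparg, the nuclear receptor that drives fat cell genes, was at 67.3 and 88.5 TPM, Srebf1 at 320.2 and 305 TPM and Cebpa at 225 and 198 TPM, while Ppara was at 3.14 and 2.76 TPM and Ppargc1a at 2.12 and 2.01 TPM.

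Markers of cell types moved between the libraries as follows, with their part in the differences of the members not tested. Beside each list stand the 2.7% of the 16920 genes that were over 2-fold apart. The median over genes averaging at least 1 TPM was -0.12. The adipocyte markers had a median log2 ratio of 0.10, and 3 of 18 were over 2-fold apart. These were Lep, the leptin gene, at 92.1 TPM in replicate 1 and 575 TPM in replicate 2, Thrsp at 435 and 1028 TPM, and Pck1 at 211 and 74.9 TPM, which were picked out after their values were seen. Cfd was the highest in replicate 1 and Car3 in replicate 2, with Cfd at 6724 and 3717 TPM and Car3 at 4587 and 5789.8 TPM in replicates 1 and 2. Of the 18 markers 10 had a positive ratio, and their summed levels were 20663 and 20248 TPM.

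On the TPM scale 11 of 13 epididymis markers and 6 of 6 epithelial markers were lower in replicate 2. So were 10962 of the 16920 genes with enough counts, and the median over all genes averaging at least 1 TPM was -0.12. Over 2-fold apart were 2.7% of those 16920 genes, and 1.54% were over 2-fold higher in replicate 1. The median log2 ratio was -0.62 for the 13 epididymis markers, with sums of 33891 TPM in replicate 1 and 22324 TPM in replicate 2. Lcn8 was at 7811 and 3137 TPM and Spag11b at 3128 and 1539 TPM, the 2 that were over 2-fold apart. The 6 epithelial markers had a median of -0.66, and Cldn7, at 142 and 68.5 TPM, was over 2-fold apart. Macrophage markers, which belong to a cell type that also stores lipid in droplets, were expressed for 12 of 12 with a median of 0.09 and sums of 704 and 842 TPM. None of them was over 2-fold apart, and Lyz2 led at 282 and 337 TPM.

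Smaller lists moved in both directions. Among all 16920 genes with enough counts, 1.15% were over 2-fold higher in replicate 2 and 1.54% over 2-fold higher in replicate 1. Brown adipocyte markers averaging at least 1 TPM had a median of 0.87, with 4 of 6 positive. Of 8 with enough counts 3, Cox8b, Cox7a1 and Otop1, were over 2-fold higher in replicate 2. Prdm16, a regulator of brown fat identity, was lower there, at 7.57 TPM in replicate 1 and 5.58 TPM in replicate 2, and Ppargc1a was at 2.12 and 2.01 TPM. Ucp1, the uncoupling protein that defines brown fat, was at 0.21 and 0.45 TPM. Muscle markers had 4 of 10 expressed and sums of 101 and 139 TPM, and those averaging at least 1 TPM had a median of 0.72 with 5 of 6 positive. Acta1 was at 68.4 and 83.6 TPM and Tnnt2 at 9.49 and 5.18 TPM. Of 9 muscle markers with enough counts 3, Tnni2, Mylpf and Myh1, were over 2-fold higher in replicate 2. Hepatocyte and enterocyte markers averaging at least 1 TPM had a median of -1.86, with 1 of 8 positive. The 8 with enough counts were a partly different set, with Apob in place of Fabp1. Of these, Cyp2e1, Alb, Apoc3, Ttr and Apoa1 were over 2-fold higher in replicate 1. Serpina1a, at 3.92 and 31.8 TPM, was over 2-fold higher in replicate 2. Of the 6 steroidogenic markers 2 were expressed, Cyp17a1 at 18.8 and 23.6 TPM and Insl3, a gene of Leydig cells, at 31.0 and 8.13 TPM. Insl3 was over 2-fold higher in replicate 1, as 1 of 4 with enough counts, and Cyp11b1 was listed at 0 in both. Some of the called genes were under the threshold of 1 TPM in the lower library. Otop1, Mylpf and Myh1 were at 0.46, 0.63 and 0.11 TPM in replicate 1, and Ttr and Apoa1 at 0.56 and 0.45 TPM in replicate 2. Otop1, Mylpf, Myh1, Ttr, Apoa1 and Ucp1 were picked out after their values were seen.

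**Figure D5:**
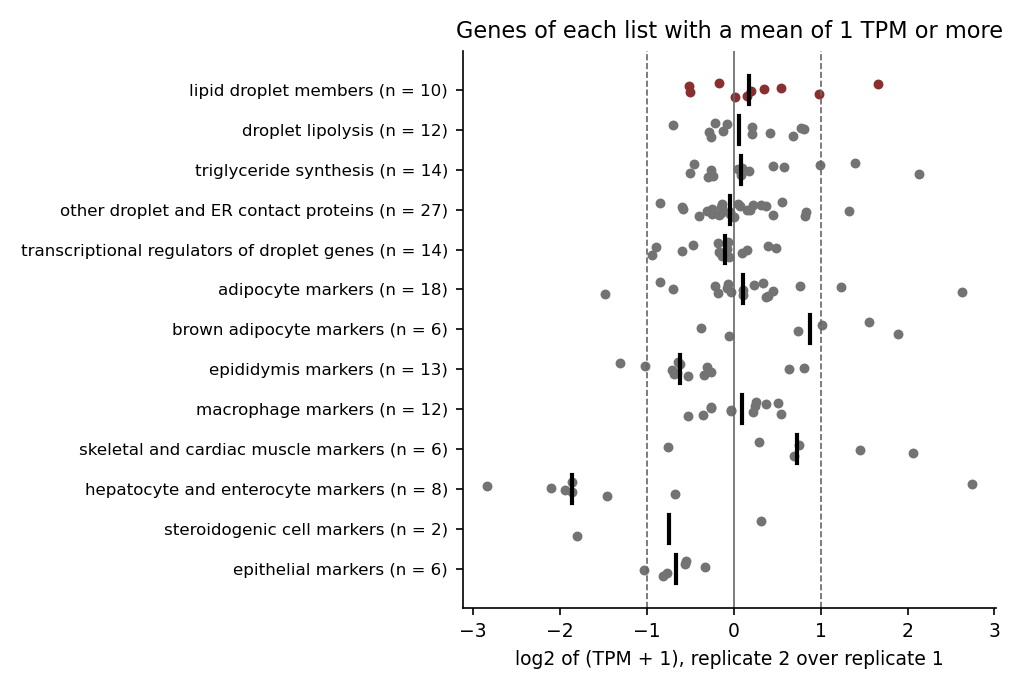
The log2 ratio of (TPM + 1), replicate 2 over replicate 1, of each gene averaging at least 1 TPM in the 10 members and in 12 lists, with a black bar at the median of each list and dashed lines at 2-fold. The members spread from -0.52 to 1.66 around a median of 0.18, and the epididymis and epithelial lists lie mostly below 0. The median over all genes averaging at least 1 TPM, -0.12, also lies below 0.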

How the data were processed

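The authors' deposited gene and transcript tables gave, per the file headers, an expected count (an estimated number of fragments), TPM, FPKM, posterior means and interval bounds for each row, and in transcript tables the percent of the gene's TPM. Per the accompanying notes, build mm10 and annotation GENCODE M4 were used. Which aligner and quantifier were run is not given in the sources used here. Junction and contig tables on mm9 were not used.

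Symbols were matched by Ensembl identifier without version to GENCODE M21 for 42462 of 43346 genes. Positions, biotypes and codons are from M21, and 29 of the 33 member transcripts had the same length there. The exceptions were Plin1-202, Plin3-201, Cidea-201 and Cideb-201. Windows at starts are from RefSeq (GRCm38.p6). The expression threshold was 1 TPM in both libraries. Log2 ratios used a pseudocount of 1, which understates differences of low genes. TMM factors came from edgeR 4.0.16 and size factors from DESeq2 1.42.0, on rounded expected counts and without a test. A chi-square statistic per degree of freedom of 136 over 19548 genes showed that the libraries were not copies. The code of the 2-fold rule was tested on simulated data. That simulation had counting noise only, a smaller pseudocount and the count filter of the rule switched off. It therefore did not test the rule at the settings used here.

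Besides the members, the text names up to 4 highest and 2 lowest genes per list, with others marked. The members and lists were chosen with earlier results of these data known.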

Additional observations from a re-analysis of the deposited data

How the results depend on the processing

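The 10 members were all expressed under each estimate tried and at 0.5 TPM, and 8 passed a threshold of 5 TPM. With 1 library left out in turn, between 4 and 10 genes kept their place in the order of levels. The number over 2-fold apart was 1 by TPM and 2, Plin2 and Cidec, by FPKM, TMM-scaled CPM, DESeq2 size factors, spike-in scaling and TPM centred on the median gene, the last chosen after seeing the data. Over these settings the log2 ratio of Plin2 ran from 1.63 to 2.08 and that of Cidec from 0.98 to 1.41. The count over all genes was 456 with a pseudocount of 1 and 1074 with 0.1. Plin4 held a mean of 39.7% of perilipin TPM and 69.0% of perilipin expected counts. No leading transcript changed with posterior means. Plin1 turned positive, at 0.25 against -0.18, under spike-in scaling. Of 213 alternative values 199 moved by no more than the spread (between the libraries, or for log2 ratios between all genes) or, for counts, kept close to the main count, and 14 moved further. Many of the 199 could not have moved further. Leaving out 1 library shifts a mean of 2 libraries by less than their SD, and the count filters do not enter a ratio. The tally is therefore no measure of robustness. No paired analysis was possible because there is 1 group. With 2 libraries the spread of any gene rests on 1 difference, and depth limits the precision of Cidea and Cideb most.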
